A study of Homo sapiens with 8 samples.

Results

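HOX genes encode homeodomain transcription factors that lie in 4 clusters in the human genome, A on chromosome 7, B on chromosome 17, C on chromosome 12 and D on chromosome 2. The 38 members examined here, HOXA2 to HOXD13, were chosen by name: a member was measured where the platform annotation gives at least 1 probe set with that symbol alone. Of the 38, 28 members had such a probe set, among 19775 genes measured in all. The other 10 were not analysed here, namely HOXA3, HOXA4, HOXA5, HOXA6, HOXA7, HOXA9, HOXA10, HOXA11, HOXA13 and HOXD3. Cluster A was therefore represented by HOXA2 alone, cluster B by 10 genes, cluster C by 9 and cluster D by 8. The 28 members had 44 probe sets, and each gene is described by the probe set with the highest mean over all arrays.

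Gene order along a HOX cluster follows the order in which the genes act along the head-to-tail axis of the embryo. Genes of the same number in different clusters are paralogs, anterior genes have low numbers and posterior genes high ones. HOX proteins bind DNA together with PBX and MEIS cofactors, retinoic acid activates many of the anterior genes, and Polycomb proteins hold silent clusters off while Trithorax proteins keep active ones on. In adult epithelia and carcinomas the set of HOX genes that is on differs between tissues and tumours.

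The material was the esophageal squamous cell carcinoma lines KYSE180 and KYSE30, established human epithelial lines. Cells of each line went through 4 transwell selections, and the cells that crossed the membrane (D, the more motile) and those that did not (U, the less motile) were kept apart. The groups were 180D, 180U, 30D and 30U, with 2 arrays each, every one of cells grown for 2 passages after harvest to about 80% confluence. The D and U subpopulations descend from 4 independent parental populations, 2 of each line, and each population gave 1 D and 1 U array. Arrays of parental cells before selection were not analysed here. Each line is a single cell line, so a difference between KYSE180 and KYSE30 compares these lines only.

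Values are log2 intensities as the authors normalised them, and a mean under 4.5 is called dim. Levels of different probe sets are not comparable with each other, so only the same gene is compared between groups. Over all probe sets the correlation was 0.9977 to 0.9984 within a group, 0.9953 to 0.9969 between D and U of a line and 0.9326 to 0.937 between lines. The array of 180D replicate 1 had the largest difference between 3′ and 5′ probe sets of ACTB, 1.92, against 1.06 to 1.42 on the other arrays. Of 11 squamous epithelial markers measured, 10 were at or above 4.5 in all 4 groups. The exception, KRT14, averaged 13.5 in KYSE180 and 3.84 in KYSE30. KRT5 and PKP1 were just over 4.5 in KYSE30, at 4.74 and 4.76, against 12.29 and 10.23 in KYSE180. The squamous list averaged 11.49 to 11.66 on KYSE180 arrays and 8.75 to 8.84 on KYSE30 arrays. Of markers of other cell types, 4 of 8 for fibroblasts (COL1A1, DCN, PDGFRB and THY1), 1 of 6 for immune cells (ITGAM) and 4 of 6 for endothelium (PECAM1, VWF, TEK and CLDN5) were at or above 4.5 in all 4 groups. Averaged over the list, fibroblast markers ran from 4.58 to 4.81 on KYSE180 arrays and from just over the dim limit to 4.58 on KYSE30 arrays, with COL1A1 at 7.54 in KYSE180 and 6.83 in KYSE30. PTPRC, COL1A2, COL3A1, LUM and KDR were under 4.5 in every group, and the part of other cells in the results was not tested. In bulk RNA, fewer cells expressing a gene and less RNA per cell cannot be told apart.

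The comparison of the lines asks which HOX genes distinguish KYSE180 from KYSE30, averaged over D and U cells. KYSE180 carried HOXD10, HOXD11 and HOXD13, posterior genes of cluster D, well above the dim limit, where KYSE30 was near or under it. HOXD10 averaged 9.64 ± 0.04 in KYSE180 and 3.83 ± 0.38 in KYSE30 (SD, n = 4 arrays each). In the opposite direction, HOXC13, HOXB3, HOXB6, HOXA2 and HOXB5 were lower in KYSE180. In all, 21 of 28 members (75%) passed an adjusted p of 0.05 (limma with Benjamini-Hochberg adjustment over all genes), 16 higher and 5 lower in KYSE180. Across all genes 55.4% passed, 30.3% higher and 25.1% lower. At least 2-fold and past the threshold were 12 members (42.9%), 9 higher and 3 lower, against 13.2% of all genes, of which 6.47% were higher and 6.75% lower. The median absolute difference was 0.79 on the log2 scale over the 28 members and 0.22 over all genes. Only 3 members (10.7%), HOXC12, HOXD1 and HOXD12, were dim in all 4 groups, against 26.3% of all genes. The arrays of the lines did not overlap for 20 members (71.4%), against 49.8% of all genes.

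**Figure D1:**
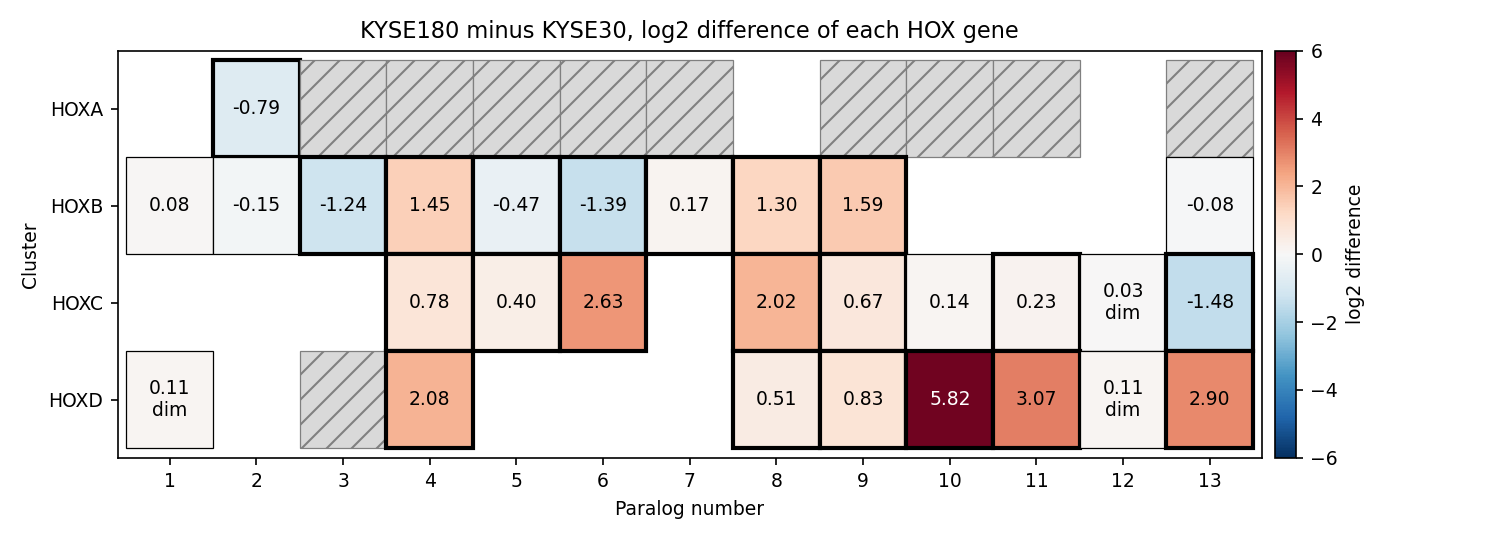
Difference in log2 intensity between KYSE180 and KYSE30 (colour, n = 4 arrays per line) for the 28 measured HOX genes, by cluster (down) and paralog number (across); cells with a thick outline passed an adjusted p of 0.05, cells marked dim were under 4.5 in all 4 groups, and hatched cells were not analysed. HOXD10 has the largest difference, 5.82, and the 5 genes with a thick outline that were lower in KYSE180 lie in clusters A, B and C.

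The promoters of 4 neighbouring cluster D genes are shown because 3 of them differed most between the lines while HOXD12, which lies between HOXD13 and HOXD11, was dim in both. HOXD4, further along the cluster, is shown as the other cluster D gene with a difference of at least 2-fold. Each is the 250 bases before the gene start on the plus strand, from RefSeq on GRCh38.p14: chr2:176092471-176092720 for HOXD13, chr2:176099545-176099794 for HOXD12, chr2:176107030-176107279 for HOXD11, chr2:176116528-176116777 for HOXD10 and chr2:176151300-176151549 for HOXD4. Capitals mark matches, on either strand, to the TATA box core TATAAA, to the motif CCAAT, to the GC box motif GGGCGG or to the motif TGATNNAT, the composite site known for PBX with HOX proteins.
HOXD13: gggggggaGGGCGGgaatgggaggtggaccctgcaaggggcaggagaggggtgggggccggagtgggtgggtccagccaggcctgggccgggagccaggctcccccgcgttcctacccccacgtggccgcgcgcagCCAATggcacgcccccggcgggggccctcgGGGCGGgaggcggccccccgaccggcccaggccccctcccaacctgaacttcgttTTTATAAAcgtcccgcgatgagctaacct
HOXD12: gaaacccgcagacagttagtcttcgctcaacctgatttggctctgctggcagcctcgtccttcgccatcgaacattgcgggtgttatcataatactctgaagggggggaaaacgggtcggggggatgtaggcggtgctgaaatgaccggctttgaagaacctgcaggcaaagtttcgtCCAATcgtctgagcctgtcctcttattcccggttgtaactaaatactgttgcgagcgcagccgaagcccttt
HOXD11: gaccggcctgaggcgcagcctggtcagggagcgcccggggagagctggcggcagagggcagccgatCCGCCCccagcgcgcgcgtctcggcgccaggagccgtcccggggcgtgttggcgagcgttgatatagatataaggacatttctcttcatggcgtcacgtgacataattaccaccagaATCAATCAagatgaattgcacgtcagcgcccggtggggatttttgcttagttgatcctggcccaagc
HOXD10: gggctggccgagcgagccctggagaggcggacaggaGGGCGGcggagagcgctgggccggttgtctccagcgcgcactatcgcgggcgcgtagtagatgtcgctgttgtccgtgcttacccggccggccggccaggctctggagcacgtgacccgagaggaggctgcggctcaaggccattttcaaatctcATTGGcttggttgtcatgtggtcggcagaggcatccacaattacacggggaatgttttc
HOXD4: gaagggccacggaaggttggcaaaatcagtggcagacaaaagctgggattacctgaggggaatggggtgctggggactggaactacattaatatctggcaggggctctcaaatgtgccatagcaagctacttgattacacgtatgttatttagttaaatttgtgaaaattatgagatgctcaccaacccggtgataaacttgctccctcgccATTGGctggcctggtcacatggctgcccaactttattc

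Of the 28 measured members, 11 had an entry in the promoter table used. In the windows shown, TATAAA had 2 matches in HOXD13, on opposite strands and overlapping in 1 marked stretch, and none in the others. A CCAAT match was present once each in HOXD13, HOXD12, HOXD10 and HOXD4. GGGCGG occurred 2 times in HOXD13 and once each in HOXD11 and HOXD10. TGATNNAT occurred once, in HOXD11. Of 34941 promoter windows of the same length, 10.8% held TATAAA on either strand, 32% held CCAAT, 42.5% held GGGCGG and 6.49% held TGATNNAT. The windows held 21 CpG dinucleotides in HOXD13, 16 in HOXD12, 23 in HOXD11, 23 in HOXD10 and 4 in HOXD4, against a median of 11 over all windows. Of the cluster D windows not shown, HOXD8 held 28 CpG and HOXD1, dim in both lines, held 31. Any relation of CpG number to the difference between the lines was not tested.

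Cluster D differed between the lines in one direction. In KYSE180, 6 of 8 measured members were higher and none lower past the threshold, beside 30.3% and 25.1% of all genes. HOXD10, which patterns lumbar motor neurons and the hindlimb in mice, measured 9.63 and 9.63 in 180D, 9.61 and 9.70 in 180U, 3.91 and 4.10 in 30D, and 4.03 and 3.27 in 30U. All KYSE180 arrays were high, all KYSE30 arrays were dim, and D and U arrays of a line lay together. The difference was 5.82 ± 0.15 on the log2 scale (SE; adjusted p = 5.34e-08 by limma), the largest of any member and the 62nd largest in size of 19775 genes. With KYSE30 under the dim limit this is at least 35.3-fold, measured from 4.5. The other HOXD10 probe sets gave differences of 4.33 and 4.08.

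HOXD11, which shapes the forearm with HOXA11 in mice, measured 7.09 and 7.26 in 180D, 7.35 and 7.28 in 180U, 4.16 and 4.20 in 30D, and 4.12 and 4.21 in 30U. The KYSE30 arrays were all dim and the lines did not overlap. The difference was 3.07 ± 0.05 (SE; adjusted p = 9.39e-09 by limma), at least 6.70-fold. HOXD13, which patterns the digits and is mutated in synpolydactyly, measured 7.54 and 7.53 in 180D, 7.81 and 7.69 in 180U, 4.88 and 4.57 in 30D, and 4.70 and 4.81 in 30U. All 8 arrays were above the dim limit, with KYSE30 just over it, and the difference was 2.90 ± 0.08 (SE; adjusted p = 5.59e-08 by limma) or 7.49-fold. Its other probe sets gave 2.77 and 0.54, the same direction at unlike sizes. HOXD12, between these genes, averaged 2.77 ± 0.18 in KYSE180 and 2.66 ± 0.14 in KYSE30 (SD, n = 4 each).

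HOXD4, a central gene of the hindbrain and neck region, measured 6.26 and 6.52 in 180D, 6.24 and 6.34 in 180U, 4.31 and 4.14 in 30D, and 4.27 and 4.34 in 30U. All KYSE30 arrays were dim and all KYSE180 arrays were not. The difference was 2.08 ± 0.07 (SE; adjusted p = 2.61e-07 by limma), at least 3.58-fold, and its other probe set gave 1.89. HOXD9 was higher by 0.83 ± 0.09 (SE, adjusted p = 8.9e-05 by limma). Its other probe set gave 0.11 and did not pass (adjusted p = 0.41 by limma), so the call rests on 1 probe set. The mean of both gave 0.47, but it includes the probe set that gave the call. HOXD8 was higher by 0.51 ± 0.05 (SE; adjusted p = 3.92e-05), with a KYSE180 mean at the dim limit. HOXD1, the anterior end, averaged 3.43 ± 0.16 in KYSE180 and 3.32 ± 0.10 in KYSE30 (SD, n = 4 each).

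**Figure D2:**
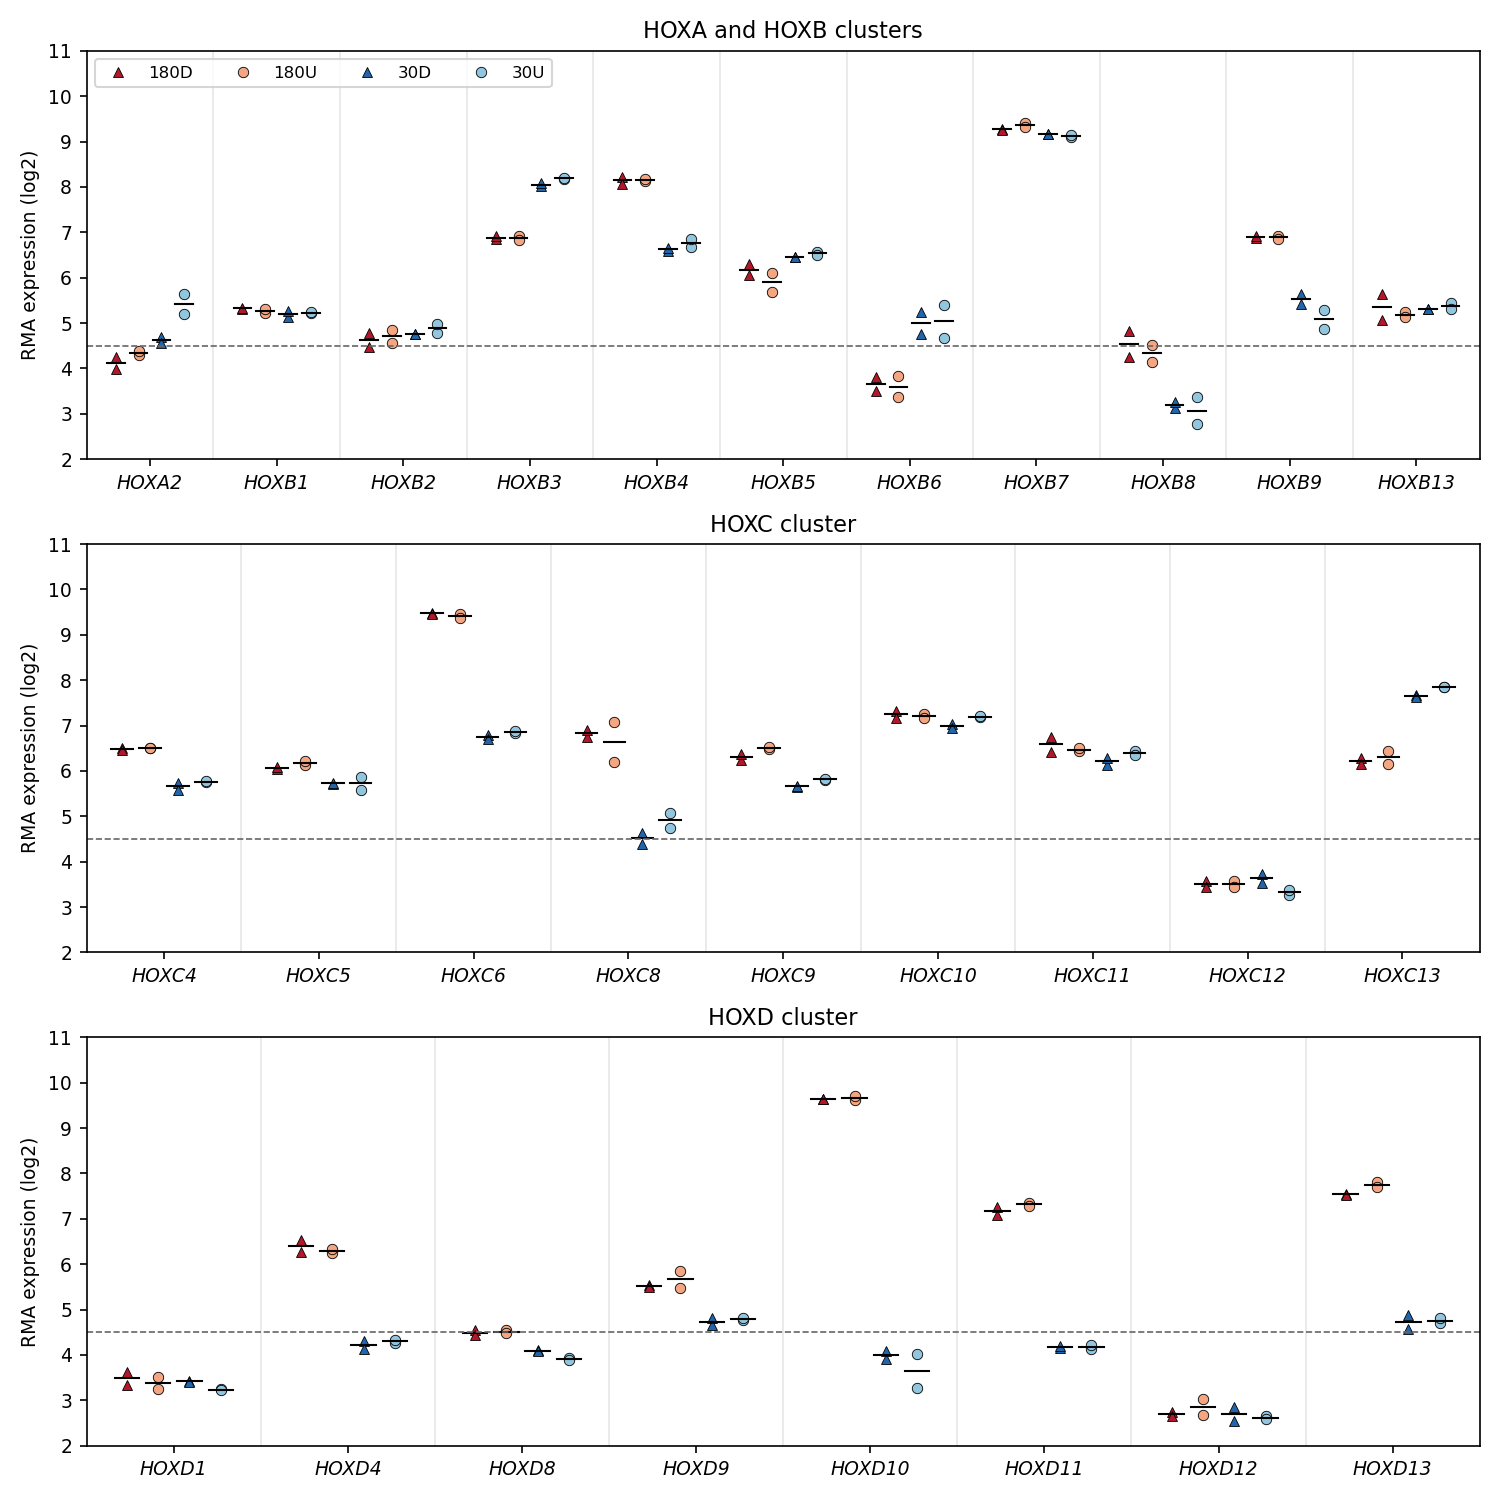
Log2 intensity on each of the 8 arrays (points, by group, with bars at the group means of 2 arrays) for the 28 measured HOX genes; the dashed line is the dim limit of 4.5. The KYSE180 values of HOXD10 lie between 9.61 and 9.70, against 3.27 to 4.10 in KYSE30, and D and U points of a line lie together.

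In cluster C, 7 of 9 members passed, 6 higher and 1 lower in KYSE180, beside 30.3% and 25.1% of all genes. The 4 central genes HOXC4, HOXC5, HOXC6 and HOXC8 were all higher. HOXC6, studied in prostate carcinoma, measured 9.47 and 9.47 in 180D, 9.45 and 9.37 in 180U, 6.80 and 6.71 in 30D, and 6.82 and 6.89 in 30U. The lines did not overlap, and KYSE30 was itself well above the dim limit. The difference was 2.63 ± 0.05 (SE; adjusted p = 9.07e-09 by limma) or 6.21-fold.

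HOXC8, a thoracic patterning gene in mice, measured 6.76 and 6.90 in 180D, 7.08 and 6.20 in 180U, 4.40 and 4.63 in 30D, and 4.75 and 5.08 in 30U. Its arrays spread more within a group than those of HOXC6, yet the lines did not overlap, and the difference was 2.02 ± 0.19 (SE; adjusted p = 4.92e-05 by limma). HOXC4 was higher by 0.78 ± 0.05, HOXC9 by 0.67 ± 0.05 and HOXC5 by 0.40 ± 0.07 (SE; adjusted p = 4.63e-06, 8.68e-06 and 0.00174). HOXC4, HOXC5 and HOXC6 share a gene start in the RefSeq table used, so their transcripts may overlap. HOXC11 was higher by 0.23 ± 0.08 (SE; adjusted p = 0.0419), with overlapping arrays. HOXC10 averaged 7.23 ± 0.08 in KYSE180 and 7.09 ± 0.13 in KYSE30 (SD, n = 4 each) and did not pass (adjusted p = 0.0637 by limma), and HOXC12 was dim.

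HOXC13, the posterior end of the cluster and a regulator of hair and nail keratins, ran the other way. It measured 6.29 and 6.16 in 180D, 6.16 and 6.43 in 180U, 7.67 and 7.62 in 30D, and 7.85 and 7.84 in 30U. All KYSE180 arrays were below all KYSE30 arrays, and the difference was -1.48 ± 0.07 (SE; adjusted p = 9.66e-07 by limma). HOXC13 and HOXD13, paralogs of the same number, thus differed between the lines in opposite directions, while HOXB13, a prostate and hindgut gene, averaged 5.27 ± 0.25 in KYSE180 and 5.34 ± 0.06 in KYSE30 (SD, n = 4 each) and did not pass.

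Cluster B was mixed, with 4 of 10 members higher and 3 lower, beside 30.3% and 25.1% of all genes. The other 3 did not pass the threshold, and the median difference was 0.00. HOXB9, a thoracic gene studied in breast and lung carcinoma, measured 6.88 and 6.91 in 180D, 6.93 and 6.85 in 180U, 5.41 and 5.64 in 30D, and 4.88 and 5.29 in 30U. The KYSE180 arrays lay close together and the KYSE30 arrays were lower and more spread, giving a difference of 1.59 ± 0.10 (SE; adjusted p = 4.85e-06 by limma). HOXB4, known for expanding blood stem cells, averaged 8.15 ± 0.06 in KYSE180 and 6.70 ± 0.11 in KYSE30 (SD, n = 4 each), a difference of 1.45 ± 0.06 (SE; adjusted p = 5.19e-07 by limma).

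HOXB8 passed as higher in KYSE180 (adjusted p = 0.000426 by limma), but both line means were dim at 4.43 in KYSE180 and 3.13 in KYSE30, so no fold is given, and its other probe set gave 0.13. HOXB7, studied in many carcinomas, was above 9 in both lines and higher in KYSE180 by 0.17 ± 0.04 (SE; adjusted p = 0.00822 by limma); its other probe sets gave 0.33 and 0.23.

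Of the lower genes of cluster B, HOXB3, a hindbrain gene next to HOXB4, averaged 6.88 ± 0.04 in KYSE180 and 8.12 ± 0.08 in KYSE30 (SD, n = 4 each), a difference of -1.24 ± 0.04 (SE; adjusted p = 2.71e-07 by limma). Its other probe set differed by 0.01. HOXB6 averaged 3.63 ± 0.23 in KYSE180 and 5.02 ± 0.36 in KYSE30 (adjusted p = 0.000591), at least 1.43-fold lower, with -0.15 on a dim probe set. HOXB5 averaged 6.03 ± 0.26 in KYSE180 and 6.50 ± 0.05 in KYSE30 (adjusted p = 0.00543), with 0.00 on its other probe set. The calls and sizes for HOXB3, HOXB5, HOXB6 and HOXB8 therefore rest on 1 probe set each. With every probe set tested, their other probe sets did not pass (adjusted p = 0.922, 0.976, 0.0586 and 0.127 by limma). Over the mean of all probe sets the differences were -0.62, -0.23, -0.77 and 0.72, each past the threshold. That mean includes the probe set that gave the call, so it is no separate support. HOXB1 and HOXB2, anterior hindbrain genes, averaged 5.29 and 4.67 in KYSE180 against 5.21 and 4.82 in KYSE30 and did not pass.

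Read by position, the central genes (paralog numbers 4 to 8) all passed, 9 higher and 2 lower of 11 measured. All genes together gave 30.3% higher and 25.1% lower. Of 12 posterior genes (9 to 13), 7 passed as higher and 1 as lower. Of 5 anterior genes (1 to 3), none passed as higher and 2, HOXA2 and HOXB3, passed as lower. No paralog number had more than 3 measured genes. All 3 measured genes of numbers 4, 8 and 9 were higher in KYSE180, while numbers 5 and 6 each had 1 gene higher and 1 lower. Sets this small cannot show a pattern by number where 55.4% of all genes passed. Line means fell on opposite sides of the dim limit for 6 members, against 5.14% of all genes: HOXD4, HOXD8, HOXD10 and HOXD11 were at or above it in KYSE180 only, against 3.04% of all genes, and HOXA2 and HOXB6 in KYSE30 only, against 2.1%.

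**Figure D3:**
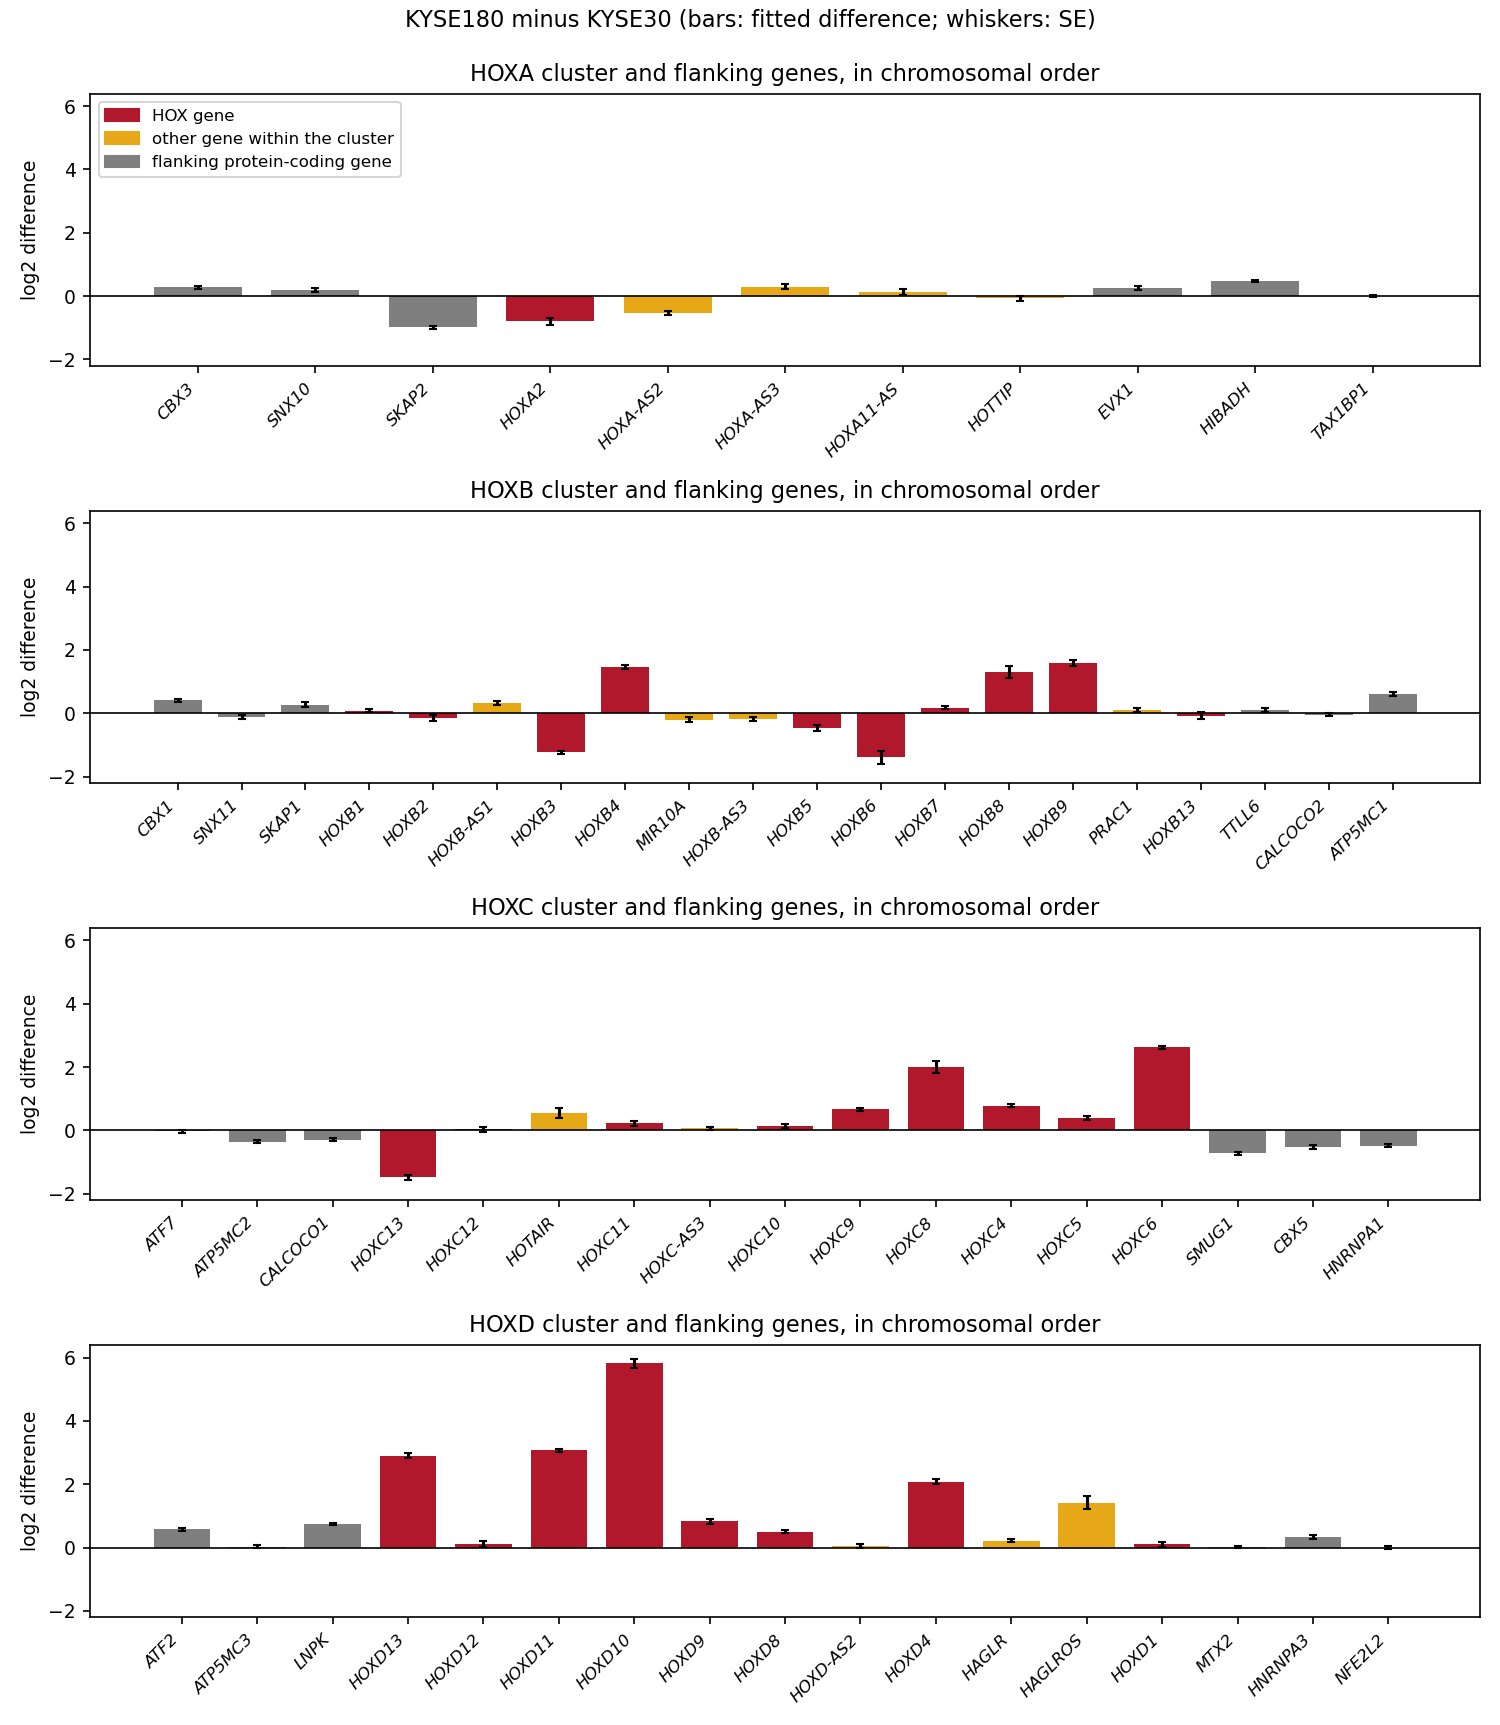
Difference in log2 intensity between KYSE180 and KYSE30 (bars, with SE) for HOX genes, other genes within the clusters and 3 measured genes on each side of each cluster, in the order of gene starts. The flanking genes lie between -0.99 (SKAP2) and 0.75 (LNPK), against -1.48 (HOXC13) to 5.82 (HOXD10) for HOX genes.

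Differences of the genes beside the clusters ran from -0.99 (SKAP2) to 0.75 (LNPK), and those of the 28 HOX members from -1.48 to 5.82. The median differences were 0.03 over the neighbours and 0.31 over the members. SKAP2 differed by more than HOXA2 (-0.79), the only measured HOX gene of cluster A. Of 24 neighbours, 16 (66.7%) passed, 10 higher and 6 lower in KYSE180, near the 55.4% of all genes. Beside cluster D, LNPK was higher by 0.75 ± 0.04 (SE; adjusted p = 4.24e-06 by limma), while MTX2 at the other side averaged 9.66 in KYSE180 and 9.64 in KYSE30 and did not pass. Beside cluster A, SKAP2 was lower, with a difference of -0.99 ± 0.04 (SE; adjusted p = 5.34e-07 by limma), or -0.65 over the mean of its probe sets. Among 13 other measured genes within the clusters, most of them noncoding RNA genes, 5 passed as higher and 1 as lower. The shares of all genes were 30.3% and 25.1%. Dim in all 4 groups were 6 of the 13. HOTAIR, HAGLR and HOXB-AS1, among those higher, had dim means in both lines. HAGLROS, a noncoding RNA gene in cluster D, averaged 5.31 in KYSE180 and 3.90 in KYSE30 (adjusted p = 0.000682 by limma), at least 1.76-fold higher. HOXA-AS2 was lower, at 5.44 in KYSE180 and 5.97 in KYSE30 (adjusted p = 0.000347 by limma).

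The selection comparisons ask whether HOX levels differ between cells that crossed the membrane and cells of the same line that did not. In KYSE180 none of 28 members passed by limma, against 1.57% of all genes, 1.05% higher and 0.521% lower. In KYSE30, 1 of 28 members (3.57%) passed, against 8.97% of all genes, of which 4.63% were higher and 4.33% lower. The absolute difference was under 0.25 on the log2 scale for 27 members in KYSE180 and for 23 in KYSE30, with standard errors of 0.06 to 0.28. At an unadjusted p under 0.05 limma gave 1 member in KYSE180 (14.6% of all genes) and 5 in KYSE30 (23.2%). Differences not past the threshold are not shown to be absent.

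The member that passed was HOXA2, which gives the second pharyngeal arch its identity. It measured 4.70 and 4.56 in 30D, against 5.20 and 5.64 in 30U. Both 30D arrays lay below both 30U arrays and just above the dim limit, and the difference was -0.78 ± 0.15 (SE; adjusted p = 0.0233 by limma). With the parental population as a block the adjusted p was 0.0578, and it was 0.0925 after leaving out 30U replicate 2, 0.0853 after leaving out 30D replicate 1 and 0.125 after leaving out 30D replicate 2. In KYSE180 the gene was dim, at 4.25 and 3.99 in 180D, against 4.30 and 4.38 in 180U. The line difference of HOXA2 was -0.79 ± 0.11 (SE; adjusted p = 0.000413 by limma), at least 1.44-fold lower in KYSE180.

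The largest rise among members was HOXB9 in KYSE30, at 5.41 and 5.64 in 30D, against 4.88 and 5.29 in 30U. The arrays did not overlap, but the difference of 0.44 ± 0.14 (SE) had an adjusted p of 0.107 by limma, and 0.0485 with the parental population as a block. It was 0.23 after leaving out 30U replicate 1 (adjusted p = 0.366), its other probe set gave 0.06, and KYSE30 fitted alone gave an adjusted p of 0.197. In KYSE180 HOXB9 differed by 0.01. Of the genes that differed most between the lines, none passed with selection. HOXD10 differed by -0.02 ± 0.21 between 180D and 180U and by 0.36 ± 0.21 between 30D and 30U (SE). HOXC8 differed by 0.19 ± 0.27 in KYSE180 and by -0.40 ± 0.27 in KYSE30 (SE). In KYSE180, HOXC6 differed by 0.06 ± 0.07, HOXD11 by -0.14 ± 0.08 and HOXD13 by -0.21 ± 0.11 (SE). In KYSE30, HOXC13 differed by -0.20 ± 0.10 (SE).

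**Figure D4:**
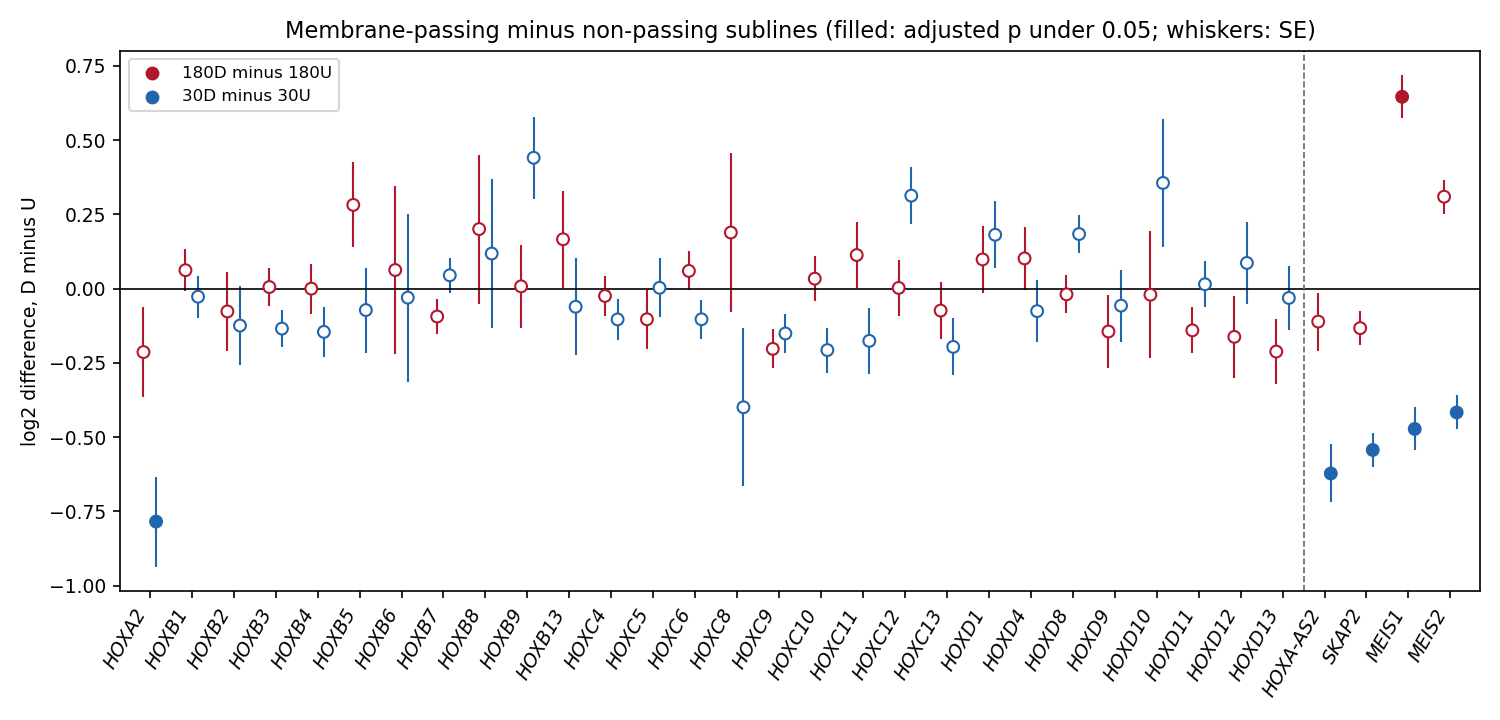
Differences D minus U in log2 intensity for each measured HOX gene and, right of the dashed line, HOXA-AS2, SKAP2, MEIS1 and MEIS2, in KYSE180 and in KYSE30 (points, with SE; n = 2 arrays per group; filled points passed an adjusted p of 0.05). HOX values lie between -0.21 and 0.28 in KYSE180 and between -0.78 (HOXA2) and 0.44 (HOXB9) in KYSE30.

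No member passed the test of whether the D minus U difference was unlike in the lines, against 5.77% of all genes by limma, of which 3.34% were more positive in KYSE180 and 2.44% less (660 and 482 genes, or 532 and 642 with each array centred on its median). At an unadjusted p under 0.05 there was 1 member, against 21% of all genes. The differences of the differences ran from -0.43 (HOXB9) to 0.59 (HOXC8).

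Among the cofactors of HOX proteins, MEIS1 changed with selection in opposite directions in the lines. Of 9 measured PBX and TALE genes, 1 passed as higher in KYSE180 D cells, and 3 as lower in KYSE30 D cells (MEIS1, MEIS2 and TGIF1), against 1.05% and 4.33% of all genes. TGIF1 lost the call in 11 of 15 alternatives (adjusted p = 0.117 with the block), and leaving out each array gave 0 to 4 cofactors called in KYSE30. MEIS1, a DNA-binding partner of HOX proteins, measured 7.37 and 7.33 in 180D, against 6.76 and 6.64 in 180U, a difference of 0.65 ± 0.07 (SE; adjusted p = 0.00817 by limma). It measured 6.29 and 6.19 in 30D, against 6.76 and 6.67 in 30U, a difference of -0.47 ± 0.07 (SE; adjusted p = 0.011 by limma). The KYSE180 call was lost with the mean of all MEIS1 probe sets (adjusted p = 0.0704) and after leaving out 180D replicate 1 (adjusted p = 0.0665) or 180U replicate 2 (0.0574), and the KYSE30 call after leaving out 30U replicate 1 (0.0814), 30U replicate 2 (0.0527) or 30D replicate 2 (0.081). The D and U arrays did not overlap in either line, and the test of the difference between the lines gave 1.12 ± 0.10 (SE; adjusted p = 0.00212 by limma).

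MEIS2 measured 10.34 and 10.29 in 180D, against 10.03 and 9.98 in 180U, and 9.09 and 9.10 in 30D, against 9.50 and 9.53 in 30U. Its difference was 0.31 in KYSE180, where it did not pass (adjusted p = 0.0536), and -0.42 in KYSE30 (adjusted p = 0.00751), and the difference between the lines was 0.73 ± 0.08 (SE; adjusted p = 0.0047 by limma). The KYSE30 call was lost after leaving out any of its 4 arrays in turn (adjusted p = 0.0547 to 0.0676 by limma). Between the lines, 6 of the 9 cofactors passed, 2 higher and 4 lower in KYSE180, beside 30.3% and 25.1% of all genes. PBX3, which pairs with HOX proteins on DNA, was lower at 6.94 in KYSE180 and 8.62 in KYSE30 (difference -1.69 ± 0.06, SE; adjusted p = 3.22e-07 by limma).

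The retinoic acid pathway, which acts upstream of HOX genes in the embryo, differed between the lines in both directions. Of 15 measured, 6 passed as higher and 5 as lower in KYSE180, beside 30.3% and 25.1% of all genes. ALDH1A1, which makes retinoic acid, measured 10.59 and 10.58 in 180D, 10.75 and 10.95 in 180U, 2.87 and 3.15 in 30D, and 2.57 and 2.15 in 30U, at least 74.5-fold higher in KYSE180 (adjusted p = 2.63e-09 by limma). RARB, a retinoic acid receptor that retinoic acid itself induces, averaged 9.17 in KYSE180 and 3.86 in KYSE30, at least 25.4-fold higher (adjusted p = 1.93e-07); over the mean of all RARB probe sets the difference was 1.83, against 5.31. ALDH1A3, another retinoic acid synthase, was lower, at 8.01 in KYSE180 and 11.41 in KYSE30 (difference -3.40 ± 0.06, SE; adjusted p = 9.08e-09), or -1.97 over the mean of its probe sets. CRABP2, which carries retinoic acid to the nucleus, was also lower, at 6.06 in KYSE180 and 8.71 in KYSE30 (difference -2.65 ± 0.05, SE; adjusted p = 1.9e-08). The synthases thus differed in opposite directions.

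**Figure D5:**
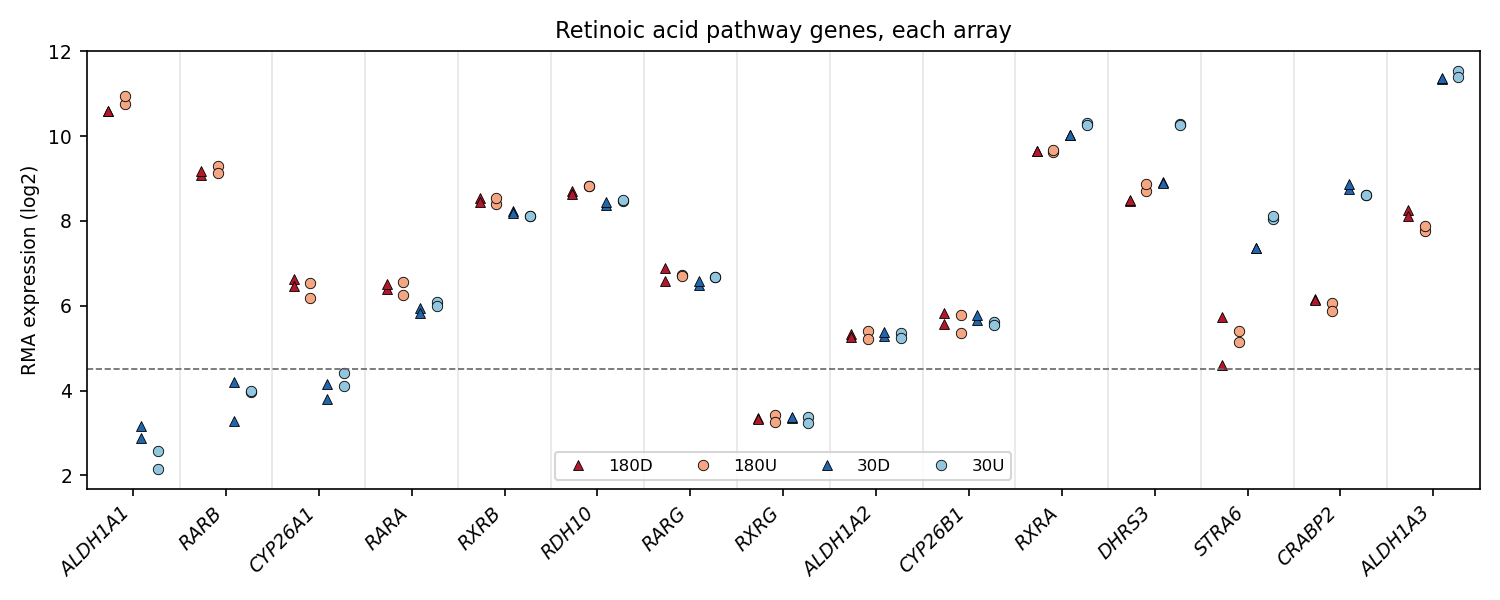
Log2 intensity on each of the 8 arrays (points, by group) for the 15 measured genes of the retinoic acid pathway; the dashed line is the dim limit of 4.5. ALDH1A1 is dim on all KYSE30 arrays, at 2.15 to 3.15, and lies between 10.58 and 10.95 in KYSE180.

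With selection, no retinoic acid gene passed in KYSE180, against 1.57% of all genes. In KYSE30, 3 of 15 passed, DHRS3 and RXRA as lower and ALDH1A1 as higher though dim in both groups. The shares of all genes there were 4.33% lower and 4.63% higher. With the block RXRA (adjusted p = 0.0956) and ALDH1A1 (0.111) lost the call, as they did in 8 and 10 of 15 alternatives. DHRS3, a retinal reductase induced by retinoic acid, measured 8.93 and 8.89 in 30D, against 10.28 and 10.25 in 30U (difference -1.36 ± 0.07, SE; adjusted p = 0.000194 by limma). In KYSE180 it measured 8.48 and 8.48 in 180D, against 8.71 and 8.88 in 180U, and did not pass (adjusted p = 0.0971). The difference between the lines was 1.04 ± 0.10 (SE; adjusted p = 0.00261 by limma).

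Among chromatin regulators of HOX clusters, 13 of 23 Polycomb genes were higher and 7 lower in KYSE180, beside 30.3% and 25.1% of all genes. CBX2, a subunit that reads the Polycomb histone mark, averaged 9.61 in KYSE180 and 7.48 in KYSE30 (difference 2.13 ± 0.05, SE; adjusted p = 3.41e-08 by limma), or 0.70 over the mean of its probe sets, and PHC2 was lower, at 8.71 in KYSE180 and 9.82 in KYSE30. A list of Trithorax genes, demethylases and others such as MLLT3 had 16 measured genes, of which 10 were higher and 2 lower. The lower ones were KDM6A, which removes the Polycomb mark, at 5.83 in KYSE180 and 6.69 in KYSE30, and KMT2D. The latter averaged 8.13 in KYSE180 and 9.04 in KYSE30. Over the mean of their probe sets these differences were -0.49 for KDM6A and -0.20 for KMT2D, against -0.86 and -0.91. With selection, none passed in KYSE180, and RBBP4 and MLLT3 passed as lower in 30D than in 30U, against 4.33% of all genes. RBBP4 lost the call in 10 of 15 alternatives, among them the block (adjusted p = 0.129) and leaving out any KYSE30 array. Of 9 ParaHox and related homeobox genes, 3 passed as higher in KYSE180, CDX2, EVX1 and MNX1, and none as lower. That is near the 30.3% of all genes that were higher, beside 25.1% lower.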

How the data were processed

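RNA of 8 samples was hybridised to Affymetrix human arrays with 54675 probe sets. The deposited values are log2 intensities made by the authors with RMA, per the submitters' processing notes; no source used here gives a version. Arrays carry no read depth, and 2 arrays a group limit the precision.

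Probe sets were named from the platform annotation: 41091 have 1 symbol, 1801 several and 11783 none, and only those with 1 symbol were used. Of them, 41037 matched a RefSeq gene of GRCh38.p14 by Entrez identifier. Where a gene had several, the one with the highest mean over the 8 arrays stood for it. The 4 group means were fitted with limma 3.58.1 in R 4.3.3 over 19775 genes and all 8 arrays, without a filter, so that each measured member was tested; p-values were Benjamini-Hochberg adjusted over all genes, with a threshold of 0.05. The contrasts were KYSE180 minus KYSE30, D minus U in each line, and the difference of the D minus U contrasts. Folds from a dim group were measured from log2 4.5, an arbitrary limit. The fit was tested on simulated data.

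Members and lists of related genes were chosen with earlier results of these data known. All measured members are named; per-array values are given for the 8 members with the largest line difference and for members past the threshold in a D minus U contrast, and at most 4 genes a list by smallest p. HOXB9 in the selection comparison was described after its values were seen.

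Parental populations pair a D with a U array, as the sample descriptions list them by subpopulation name; the pairs do not follow the replicate numbers in KYSE180. Deviations of paired arrays from their group means correlated at 0.0188 in KYSE180 and -0.0178 in KYSE30. Alternatives were a filter on dim genes, centring of arrays, a trend in eBayes, the mean of all probe sets or every probe set, the parental population as a block, fits of 1 line, other dim limits and leaving out each array. Promoter windows came from RefSeq.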

Additional observations from a re-analysis of the deposited data

Results flagged for a closer look

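These genes had a D minus U difference in KYSE180 unlike that in KYSE30 by the test of the difference itself (limma, adjusted over all genes). MEIS1 had a difference of differences of 1.12 on the log2 scale, and MEIS2 of 0.73. DHRS3 had 1.04. All 3 kept the call in the 14 alternatives run for it. The cluster A neighbours SKAP2 and HIBADH had 0.41 (adjusted p = 0.0336) and 0.44 (adjusted p = 0.0255). SKAP2 lost the call in 12 of those alternatives and HIBADH in 10. Passing were 2 of 9 PBX and TALE genes, 1 of 15 retinoic acid genes and 2 of 24 neighbours, against 5.77% of all genes. None passed among 23 Polycomb genes, 16 of the Trithorax list, 13 other genes within the clusters and 9 ParaHox and related genes. No HOX gene met this criterion, and groups of 2 arrays are too small for a search for outlying arrays.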

How the results depend on the processing

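Of the 21 HOX genes that passed between the lines, 17 kept the call in all 15 alternatives and 3 (HOXB6, HOXB8 and HOXD8) in each that tested them, since the filter removed them; HOXC11 lost it in 8. None of these 21 differences changed direction. The alternative testing every probe set followed the same probe set of each gene, so its difference could not change. HOXB3, HOXB5 and HOXD9 kept the call although their other probe sets did not pass (adjusted p = 0.922, 0.976 and 0.41 by limma). The filter used the mean over all 8 arrays, which HOXD4, HOXD10 and HOXD11 pass through KYSE180 alone and HOXA2 through KYSE30. It is no support for these genes. HOXB13, not past the threshold with all arrays, passed as lower without 180D replicate 1 (-0.22, adjusted p = 0.0193) and ranged up to 0.06 in other alternatives. Leaving out each array in turn gave 20 to 22 members called between the lines. Without the array of 180D replicate 1, whose ACTB 3′ to 5′ difference was largest, 21 members passed, 20 of them the same. Between 30D and 30U the count of 1 member became 2 with the eBayes trend, 0 with KYSE30 arrays fitted alone, and 0 to 2 with each array left out: 0 without 30D replicate 1 and without 30D replicate 2, and 2 without 30U replicate 1. At a dim limit of log2 5, 6 members were dim in all 4 groups instead of 3.

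With the parental population as a block, HOXA2 had an adjusted p of 0.0578 and HOXB9 of 0.0485 between 30D and 30U, and the counts over all genes became 147 in KYSE180, 840 in KYSE30 and 407 for the difference of the contrasts, against 311, 1773 and 1142 without it. The calls of SKAP2 and HIBADH for the difference of the contrasts were lost with the block (adjusted p = 0.106 and 0.0948). Other alternatives moved the counts over all genes by more than 1.5 times. The filter gave 532 in KYSE180 and 1723 for the difference, and the trend 990 in KYSE180, 3111 in KYSE30 and 2558 for the difference. Testing every probe set gave 736 for the difference, and KYSE180 arrays alone gave 146. Leaving out arrays gave 98 to 224 in KYSE180, 424 to 1710 in KYSE30 and 364 to 841 for the difference.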

Other observations

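Other values near the HOX genes are given here without a test of an explanation. CYP26A1, which degrades retinoic acid, was named after its values were seen: it averaged 6.45 in KYSE180 and 4.12 in KYSE30, at least 3.86-fold higher in KYSE180. MLLT3, from the list with the Trithorax genes, was lower in 30D than in 30U by a difference of -0.47 (adjusted p = 0.00744 by limma). That call was lost with the mean of its probe sets (adjusted p = 0.132 by limma). It was also lost without 30U replicate 1 (difference -0.43) and without 30D replicate 2 (-0.43). HOXA-AS2, which lies in cluster A, measured 5.75 and 5.57 in 30D, against 6.34 and 6.22 in 30U (adjusted p = 0.0118 by limma, and 0.0397 with the parental population as a block). That call was lost after leaving out 30D replicate 2 (0.0788), 30U replicate 1 (0.0811) or 30U replicate 2 (0.0534). SKAP2, at the edge of cluster A, measured 9.26 and 9.27 in 30D, against 9.84 and 9.77 in 30U (adjusted p = 0.00294 by limma). Of 13 other genes within the clusters, 2 passed as lower in 30D, HOXA-AS2 and HOTAIR of cluster C. Of 24 neighbours, 2 passed as lower, SKAP2 and HIBADH, and 1 as higher, ATF2 beside cluster D. The shares of all genes were 4.33% lower and 4.63% higher. HOTAIR lost the call in 8 of 14 alternatives, HIBADH in 8 of 15 and ATF2 in 13 of 15.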
